A study of Mus musculus with 6 samples.

Results

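The core circadian clock of the mouse liver was followed through 10 genes, the activators Arntl, Clock and Npas2, the repressors Per1, Per2, Per3, Cry1 and Cry2, and the Rev-erb receptors Nr1d1 and Nr1d2, out of 18193 genes measured on the array. Every probe set, a group of oligonucleotides against a transcript, that carried exactly 1 gene symbol equal to one of these names was taken, which gave 23 probe sets, and no probe set named such a gene among several symbols. The arrays came from livers of 3 HLJ1-/- (Dnajb4-/-) and 3 HLJ1+/+ (Dnajb4+/+) mice, labelled as male C57BL/6 mice aged 6 to 8 weeks and as biological replicates, with 1 Affymetrix mouse whole-genome expression array for each. The knockout was made by gene targeting in embryonic stem cells and Dnajb4 encodes HLJ1, a heat shock protein of the HSP40 family. The labels name no treatment, and all mice were kept under 12 h of light and 12 h of dark. The labels and methods give no hour of collection for any array, so the genotype and the hour of collection cannot be told apart in any difference reported here.

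The clock is a feedback loop of transcription that runs with a period of about a day in nearly every cell. The proteins of Arntl (also called Bmal1) and Clock, or its relative Npas2, bind E-boxes and switch on the Per, Cry and Rev-erb genes. The PER and CRY proteins then gather and shut off their own activators, and the Rev-erb receptors repress Arntl, Npas2 and Clock through elements that they share with the ROR receptors. In liver this loop times metabolism of lipids, glucose, bile acids and drugs, and the RNA of most of its members swings strongly over the day.

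The elements of the loop are shown by the stretches before the transcript starts of 5 genes and by a short site near an Arntl start. Start windows from RefSeq (GRCm38.p6), which reach from 250 bases before a transcript start to 50 after it, were found for 9 of the 10 genes, in 13 windows. They were searched on both strands for the E-box CACGTG, the related E'-box CACGTT, the D-box as TTATGTAA or TTACGTAA, and the Rev-erb element (RRE) as TAGGTCA or TGGGTCA, none of which holds another. Each of the stretches is printed 5′ to 3′ on the strand of its gene. Capitals mark the matched letters, and a match on the opposite strand reads as the reverse complement. The regions are chr7:113207530-113207559 (Arntl, plus strand), chr11:69098699-69098948 (Per1, plus strand), chr4:151044666-151044915 (Per3, minus strand), chr10:85185055-85185304 (Cry1, minus strand), chr2:92434070-92434319 (Cry2, minus strand) and chr11:98775378-98775627 (Nr1d1, minus strand).
Arntl: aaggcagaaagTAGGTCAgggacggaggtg
Per1: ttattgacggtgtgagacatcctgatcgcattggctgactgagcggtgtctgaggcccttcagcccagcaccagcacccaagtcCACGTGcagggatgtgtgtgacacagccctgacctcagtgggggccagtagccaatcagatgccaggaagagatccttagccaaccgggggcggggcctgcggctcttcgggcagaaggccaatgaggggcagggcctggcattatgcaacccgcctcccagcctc
Per3: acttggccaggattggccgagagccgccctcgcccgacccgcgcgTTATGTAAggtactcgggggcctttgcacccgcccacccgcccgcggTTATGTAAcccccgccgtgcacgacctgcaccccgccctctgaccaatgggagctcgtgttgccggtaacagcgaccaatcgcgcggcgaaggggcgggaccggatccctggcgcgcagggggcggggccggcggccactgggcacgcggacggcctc
Cry1: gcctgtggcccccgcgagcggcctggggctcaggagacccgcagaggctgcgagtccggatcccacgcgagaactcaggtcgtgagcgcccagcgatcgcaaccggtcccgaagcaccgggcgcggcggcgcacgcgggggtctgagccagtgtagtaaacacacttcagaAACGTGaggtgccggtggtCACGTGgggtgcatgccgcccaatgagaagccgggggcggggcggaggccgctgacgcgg
Cry2: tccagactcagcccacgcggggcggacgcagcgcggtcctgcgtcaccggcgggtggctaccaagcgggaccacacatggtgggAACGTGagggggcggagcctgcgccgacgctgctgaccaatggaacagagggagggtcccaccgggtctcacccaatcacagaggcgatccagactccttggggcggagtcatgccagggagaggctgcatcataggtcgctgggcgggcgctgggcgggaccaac
Nr1d1: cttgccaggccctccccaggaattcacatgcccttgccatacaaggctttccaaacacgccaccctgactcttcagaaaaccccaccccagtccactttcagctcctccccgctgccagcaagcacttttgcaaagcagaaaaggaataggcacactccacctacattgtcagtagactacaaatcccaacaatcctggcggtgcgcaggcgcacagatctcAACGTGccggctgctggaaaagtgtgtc

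Per1 had an E-box 166 bases before the start, and Cry1 had an E-box 60 bases and an E'-box 79 bases before it. Cry2 and Nr1d1 had an E'-box each, at 166 and 28 bases before the start. Per3 had 2 D-boxes, at 205 and 158 bases before the start, and Arntl had an RRE 30 bases after the start of 1 of its 2 windows. No match was found in the windows of Clock, Npas2 and Nr1d2, and Per2 was named only. Of all 32851 start windows in the table, 7.15% held an E-box, 4.68% an E'-box, 1.06% a D-box and 6.45% an RRE, against 2, 3, 1 and 1 of the 13 windows of the core clock genes. A match is a description of these letters and not a site shown to be in use.

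**Figure D1:**
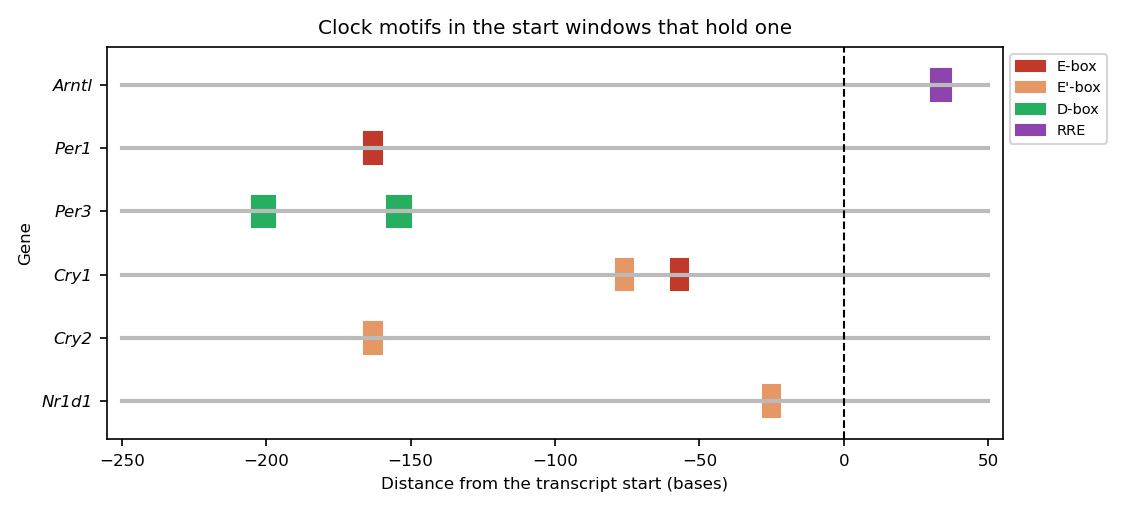
Place of the E-box, E'-box, D-box and RRE matches (coloured boxes) relative to the transcript start (x axis, bases, dashed line at 0) in the 6 genes with a match (y axis). The matches lie between 205 bases before the start (Per3) and 30 bases after it (Arntl).

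The values are GCRMA intensities on a linear scale, log2-transformed and averaged per gene, and all log2 differences are Dnajb4-/- minus Dnajb4+/+. Each ratio is the log2 difference put back on the linear scale, so it can differ slightly from the quotient of the printed means. A gene was called when limma's moderated test gave an adjusted p under 0.05 over all 18193 genes (Benjamini-Hochberg). Standard errors are limma's moderated ones for the log2 difference. Their variance is drawn toward that of all genes, or of all probe sets for a probe set. The core clock genes were picked with this contrast known, so their differences and calls are a description and no p-value is given for them. The values of 3 arrays per genotype limit the precision, and the lower quartile of probe set signal, 15.1, and the median, 44.1, serve as a guide to what is dim.

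The arrays of the 2 genotypes also differed in other ways. The brightest Dnajb4 probe set read 467, 480 and 453 in Dnajb4-/- livers, against 588, 566 and 612 in Dnajb4+/+ livers, and the other probe sets of Dnajb4 overlapped between genotypes. Xist, the noncoding RNA of the inactive X in female cells, was at 14.3 to 17.1 in Dnajb4-/- arrays and 364 to 402 in Dnajb4+/+ arrays, all labelled male, while 3 Y-linked genes in the Dnajb4+/+ arrays lay at 85.1% to 94.2% of their Dnajb4-/- mean. The intensities of these 3 genes together summed to only 127 to 134 in Dnajb4-/- and 107 to 120 in Dnajb4+/+ arrays. The control probe sets gave a 3'/5' signal ratio, which grows as RNA is degraded, of 1.43 to 1.48 in Dnajb4-/- and 1.16 to 1.19 in Dnajb4+/+ arrays for Gapdh. For Actb it was 3.10 to 3.22 in Dnajb4-/- and 2.59 to 2.68 in Dnajb4+/+ arrays. Beside the counts of called markers that follow, 5.09% of all genes were called higher and 9.57% lower, 14.7% in all. Hepatocyte markers summed to 117192 to 118269 in Dnajb4-/- and 119206 to 119821 in Dnajb4+/+ livers (2 of 8 higher, 1 lower). Skeletal muscle markers summed to 379 to 393 in Dnajb4-/- and 776 to 839 in Dnajb4+/+ livers (10 of 12 lower, Myh4 under the lower quartile of signal). Kupffer cell markers summed to 3802 to 3991 in Dnajb4-/- and 4898 to 5132 in Dnajb4+/+ livers (7 of 8 lower), and endothelial markers to 1027 to 1089 in Dnajb4-/- and 1195 to 1233 in Dnajb4+/+ livers (4 of 6 lower). Pancreatic acinar markers summed to 917 to 982 in Dnajb4-/- and 654 to 674 in Dnajb4+/+ livers (1 of 4 higher, Cela1), and stellate cell markers to 674 to 699 in Dnajb4-/- and 744 to 750 in Dnajb4+/+ livers (0 of 6 called by limma or the methods' t-test, 1 at an unadjusted p under 0.05). Cholangiocyte markers summed to 145 to 150 in Dnajb4-/- and 126 to 142 in Dnajb4+/+ livers (1 of 4 higher). Adipocyte markers summed to 169 to 180.4 in Dnajb4-/- and 180.6 to 188 in Dnajb4+/+ livers (1 of 4 lower, Adipoq, and Cidec under the lower quartile of signal). The sums of lymphocyte and erythroid markers overlapped between genotypes. The part of these in the clock values was not tested, and in whole liver fewer cells of a type and less RNA per cell cannot be told apart.

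All 10 core clock genes were called and in all 10 the arrays of the genotypes did not overlap. Higher in Dnajb4-/- livers were 4 genes, Arntl, Npas2, Cry1 and Clock, and lower were 6, Per1, Per3, Per2, Cry2, Nr1d2 and Nr1d1. Over all genes 14.7% were called, 5.09% as higher and 9.57% as lower, and 35.5% had genotypes that did not overlap. Of the 2667 called genes 34.7% were higher. With each array centred on its brighter probe sets 2975 genes were called, 50.5% of them higher, and every core clock gene stayed on its side. The median absolute log2 difference was 0.71 in the core clock genes and 0.084 over all genes, while the median SD within genotypes was 0.069 in the core clock genes and 0.070 over all genes on the log2 scale. By absolute difference among all genes, the core clock genes ranked from 50 (Arntl) to 768 (Nr1d1).

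**Figure D2:**
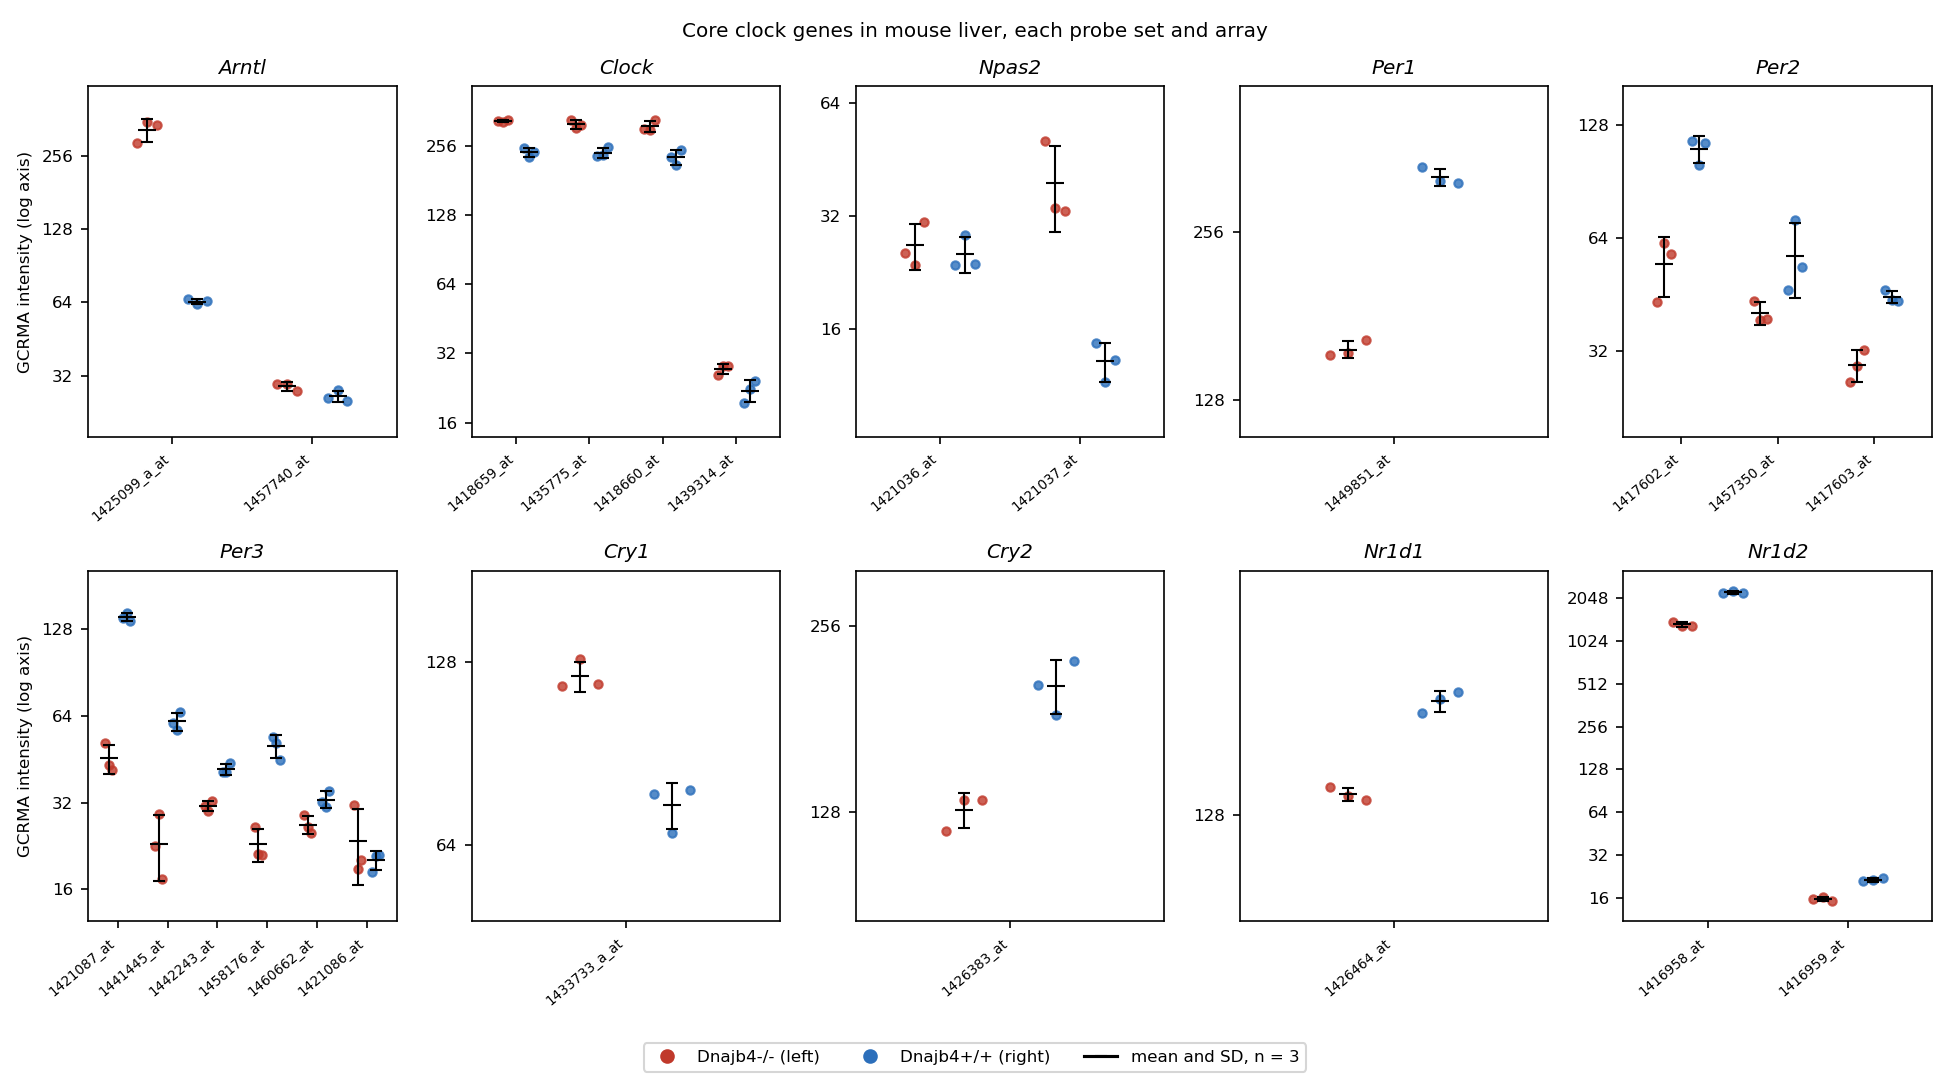
GCRMA intensity (y axis, log scale) of every core clock probe set (x axis) in each array, with Dnajb4-/- arrays in red on the left, Dnajb4+/+ arrays in blue on the right, and black bars for each mean ± SD (n = 3). The genotypes do not overlap in 20 of the 23 probe sets, and the 3 that overlap belong to Arntl, Npas2 and Per3.

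Arntl encodes BMAL1, the partner that every activator pair of the clock needs. Its brighter probe set, 1425099_a_at, read 287, 353 and 340 in Dnajb4-/- livers, against 65.9, 62.8 and 64.6 in Dnajb4+/+ livers. The lowest Dnajb4-/- array was thus far above the highest Dnajb4+/+ array. The Dnajb4-/- mean was 327 ± 34.9 and the Dnajb4+/+ mean 64.4 ± 1.55 (SD, n = 3). The ratio was 5.05 and the log2 difference 2.34 (standard error 0.08), the largest of the 23 probe sets in size. The other probe set, 1457740_at, read 29.6, 29.6 and 27.6 in Dnajb4-/- and 25.9, 27.8 and 25.1 in Dnajb4+/+ livers, with a log2 difference of 0.14 (standard error 0.06). Its arrays overlapped, it lay under the median signal of the array and it was not called. Averaged over both, Arntl had a log2 difference of 1.24 (standard error 0.05), so the call of the gene rests on 1 of its 2 probe sets. Where in the transcript each of them binds was not examined.

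Clock, the activator that pairs with BMAL1, had 3 bright probe sets that moved alike. The brightest, 1418659_at, read 327, 327 and 333 in Dnajb4-/- livers and 251, 229 and 241 in Dnajb4+/+ livers. The Dnajb4-/- mean was 329 ± 3.29 and the Dnajb4+/+ mean 240 ± 11.1 (SD, n = 3), with a log2 difference of 0.45 (standard error 0.05). The next, 1435775_at and 1418660_at, had log2 differences of 0.41 and 0.45 and were called as well. The dimmest, 1439314_at, had means of 27.5 in Dnajb4-/- and 22.0 in Dnajb4+/+ livers, a log2 difference of 0.32 (standard error 0.09), and was not called although its arrays did not overlap. Over the 4 probe sets the log2 difference was 0.41 (standard error 0.05), the smallest of the 4 genes that rose with probe sets averaged per gene. With the brightest probe set of each gene, Npas2 was smaller, at 0.07, against 0.45 for Clock.

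Npas2, which can stand in for CLOCK beside BMAL1, was dim in liver, with both probe sets under the median signal. Probe set 1421037_at read 50.7, 33.6 and 33.0 in Dnajb4-/- livers, against 14.6, 11.5 and 13.2 in Dnajb4+/+ livers. The genotypes were apart, the Dnajb4+/+ arrays lay under the lower quartile of signal, and Dnajb4-/- replicate 1 was above the other two. The log2 difference was 1.55 (standard error 0.18), and 0.91 with 16 added to each value. Probe set 1421036_at read 25.5, 23.7 and 30.9 in Dnajb4-/- and 23.6, 28.5 and 23.8 in Dnajb4+/+ livers, with a log2 difference of 0.07 (standard error 0.12), and its arrays overlapped. The gene as a whole had a log2 difference of 0.81 (standard error 0.09), which rests on 1 probe set.

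The Per genes, whose proteins carry the repressing complex into the nucleus, all fell in Dnajb4-/- livers. Per1, which also responds quickly to feeding and hormones, read 154, 155 and 164 in Dnajb4-/- livers, against 334, 317 and 313 in Dnajb4+/+ livers on its only probe set. The mean was 158 ± 5.46 in Dnajb4-/- livers, against 321 ± 11.4 in the Dnajb4+/+ ones (SD, n = 3). The log2 difference was -1.03 (standard error 0.05). With probe sets averaged per gene, this was the largest fall among the core clock genes. Beside Arntl, Per1 was then the only other core gene past 2-fold. With the brightest probe set of each gene, Per3 at -1.64 and Per2 at -1.03 were past 2-fold as well, and Per3 fell most. The arrays of Per1 were close together within each genotype.

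Per2, which mice need for a lasting rhythm, was read by 3 probe sets, and all had a lower mean in Dnajb4-/- livers. The brightest, 1417602_at, read 43.4, 62.1 and 58.2 in Dnajb4-/- livers and 116, 100.1 and 115 in Dnajb4+/+ livers, a log2 difference of -1.03 (standard error 0.14). The arrays did not overlap, but those of Dnajb4-/- livers were spread. Probe set 1417603_at fell by 0.61 on the log2 scale. Probe set 1457350_at, at 43.7, 38.7 and 39.1 in Dnajb4-/- and 46.7, 71.5 and 53.8 in Dnajb4+/+ livers, had a difference of -0.48 (standard error 0.15) and was not called. Over the probe sets Per2 had a log2 difference of -0.71 (standard error 0.06).

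Per3, the Per gene that the loop can most easily do without, had 6 probe sets, of which 5 fell and 1 was not called. The brightest, 1421087_at, read 51.6, 43.3 and 41.6 in Dnajb4-/- livers, against 140.2, 146 and 136 in Dnajb4+/+ livers. The Dnajb4-/- mean was 45.5 ± 5.35 and the Dnajb4+/+ mean 141 ± 4.69 (SD, n = 3). The ratio was 0.322 and the log2 difference -1.64 (standard error 0.09). The other probe sets were not above the median signal, and those that fell had log2 differences from -1.43 (1441445_at) to -0.29 (1460662_at). Probe set 1421086_at, with a difference of 0.18 (standard error 0.19), read 31.3 in Dnajb4-/- replicate 1 and between 18.4 and 21.1 in the other arrays. The gene had a log2 difference of -0.79 (standard error 0.08), less than its brightest probe set alone.

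**Figure D3:**
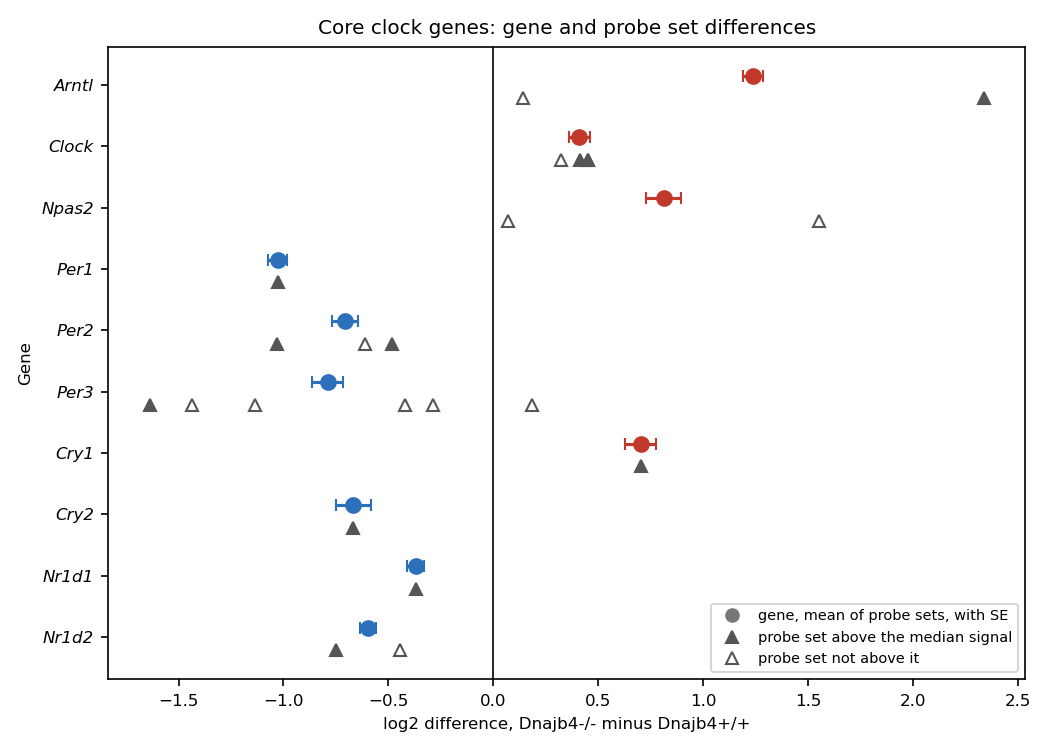
Log2 difference (x axis, Dnajb4-/- minus Dnajb4+/+) of each core clock gene (y axis), as circles with the standard error, red where higher and blue where lower, over its probe sets as triangles, filled where above the median signal. All filled triangles of a gene lie on the side of its circle, and the only triangle on the other side is a dim Per3 probe set at 0.18.

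The Cry genes moved in opposite directions. CRY1 and CRY2 are the repressors that bind the activator pair directly, CRY1 acting later in the cycle. Cry1 read 117, 129 and 118 in Dnajb4-/- livers, against 77.6, 67.2 and 79.0 in Dnajb4+/+ livers. The Dnajb4-/- mean was 121 ± 6.87 and the Dnajb4+/+ mean 74.6 ± 6.47 (SD, n = 3), with a ratio of 1.63 and a log2 difference of 0.70 (standard error 0.07). Cry2 read 119, 134 and 133 in Dnajb4-/- livers and 206, 184 and 225 in Dnajb4+/+ livers. Its Dnajb4-/- mean was 129 ± 8.49 and its Dnajb4+/+ mean 205 ± 20.7 (SD, n = 3), with a ratio of 0.630 and a log2 difference of -0.67 (standard error 0.08). Each Cry gene had a single probe set, and in both the genotypes were apart.

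The Rev-erb genes, which encode heme-binding nuclear receptors that repress Arntl, fell in Dnajb4-/- livers while Arntl rose. Nr1d1 (REV-ERB alpha) read 138, 135 and 134 in Dnajb4-/- livers, against 169.9, 176 and 179.8 in Dnajb4+/+ livers. The arrays of each genotype were close together and apart from the other, with a Dnajb4-/- mean of 136 ± 2.41 and a Dnajb4+/+ mean of 175 ± 5.04 (SD, n = 3). The log2 difference of -0.37 (standard error 0.04) was the smallest in size of the core clock genes with probe sets averaged per gene. With the brightest probe set of each gene, Npas2 was smaller, at 0.07. Nr1d2 (REV-ERB beta) read 1398, 1314 and 1320 in Dnajb4-/- livers and 2223, 2303 and 2251 in Dnajb4+/+ livers on its bright probe set, 1416958_at. This is a ratio of 0.595 and a log2 difference of -0.75 (standard error 0.05). Its dim probe set, 1416959_at, had a mean of 15.7 in Dnajb4-/- and 21.3 in Dnajb4+/+ livers, near the lower quartile of signal, and a log2 difference of -0.44. Both were called, and the gene had a log2 difference of -0.60 (standard error 0.04).

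At the level of single probe sets, 18 of the 23 were called, 6 higher and 12 lower, and 20 had genotypes that did not overlap. Over all 34945 probe sets 13.5% were called and 35.1% did not overlap. Of the 23 probe sets 12 lay above the median signal. The 5 that were not called are 1 probe set each of Arntl, Clock, Npas2, Per2 and Per3.

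Set in the order in which their RNA is known to peak in mouse liver, the core clock genes split by time. Cry1, Npas2, Arntl and Clock, which peak from late night to dawn, were the 4 genes that rose, with log2 differences of 0.41 to 1.24. Nr1d1, Nr1d2, Per3, Per1, Per2 and Cry2, which peak from the day to the early night, were the 6 that fell, with differences of -1.03 to -0.37. The grouping was made with the directions known. As a single unstated hour per mouse gives no curve, no shift of phase was estimated.

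The rest of the pathway was read from a list of 26 genes, of which 24 had a probe set. Among these, 3 rose in Dnajb4-/- livers, 9 fell and 12 were not called, so that 12 of 24 were called, beside the 5.09% called higher, 9.57% lower and 14.7% in all over every gene measured. The median log2 difference was -0.056 in the list, against 0.0075 over all genes. All 4 D-box factors were called. Dbp, a PAR bZIP activator driven by E-boxes, read 215, 198 and 212 in Dnajb4-/- livers, against 1727, 1698 and 1740 in Dnajb4+/+ livers. This log2 difference of -3.05 (standard error 0.04) exceeded that of every core clock gene in size. Nfil3 (E4BP4), the repressor that competes for the same element, read 553, 578 and 588 in Dnajb4-/- and 287, 266 and 321 in Dnajb4+/+ livers, a log2 difference of 0.98 (standard error 0.07). Thus the repressor was higher and the 3 activators Dbp, Tef and Hlf were lower.
Of the 3 further repressors, Ciart (CHRONO), which binds BMAL1, read 50.0, 57.0 and 40.1 in Dnajb4-/- and 138, 150.1 and 179 in Dnajb4+/+ livers, a log2 difference of -1.67 (standard error 0.14). Bhlhe40 (DEC1), which competes for E-boxes, fell by 0.31 on the log2 scale, and Bhlhe41 was not called. All 6 rhythmic outputs were called, 4 lower and 2 higher. Among them Usp2, a deubiquitinase, had a Dnajb4-/- mean of 159 ± 17.3 and a Dnajb4+/+ mean of 698 ± 20.3 (SD, n = 3), and its log2 difference was -2.14 (standard error 0.08). Wee1, a kinase that holds back mitosis, had a Dnajb4-/- mean of 38.5 ± 1.97 and a Dnajb4+/+ mean of 103 ± 11.8 (SD, n = 3), and its log2 difference was -1.41 (standard error 0.09). Of the 9 measured genes listed as kinases, ubiquitin ligases and cofactors, 0 were called by limma (3 at an unadjusted p under 0.05) or by the methods' t-test. The largest difference among them was 0.19 (Fbxl21, which encodes an F-box protein that binds CRY, standard error 0.06). This list also holds Arntl2, a relative of Arntl, at -0.10 (standard error 0.04) and among the 3 at an unadjusted p under 0.05. Of the 2 measured ROR genes 0 were called by limma (1 at an unadjusted p under 0.05) or by that test, with Rora, an activator at the Rev-erb elements, at 0.14 (standard error 0.04).

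**Figure D4:**
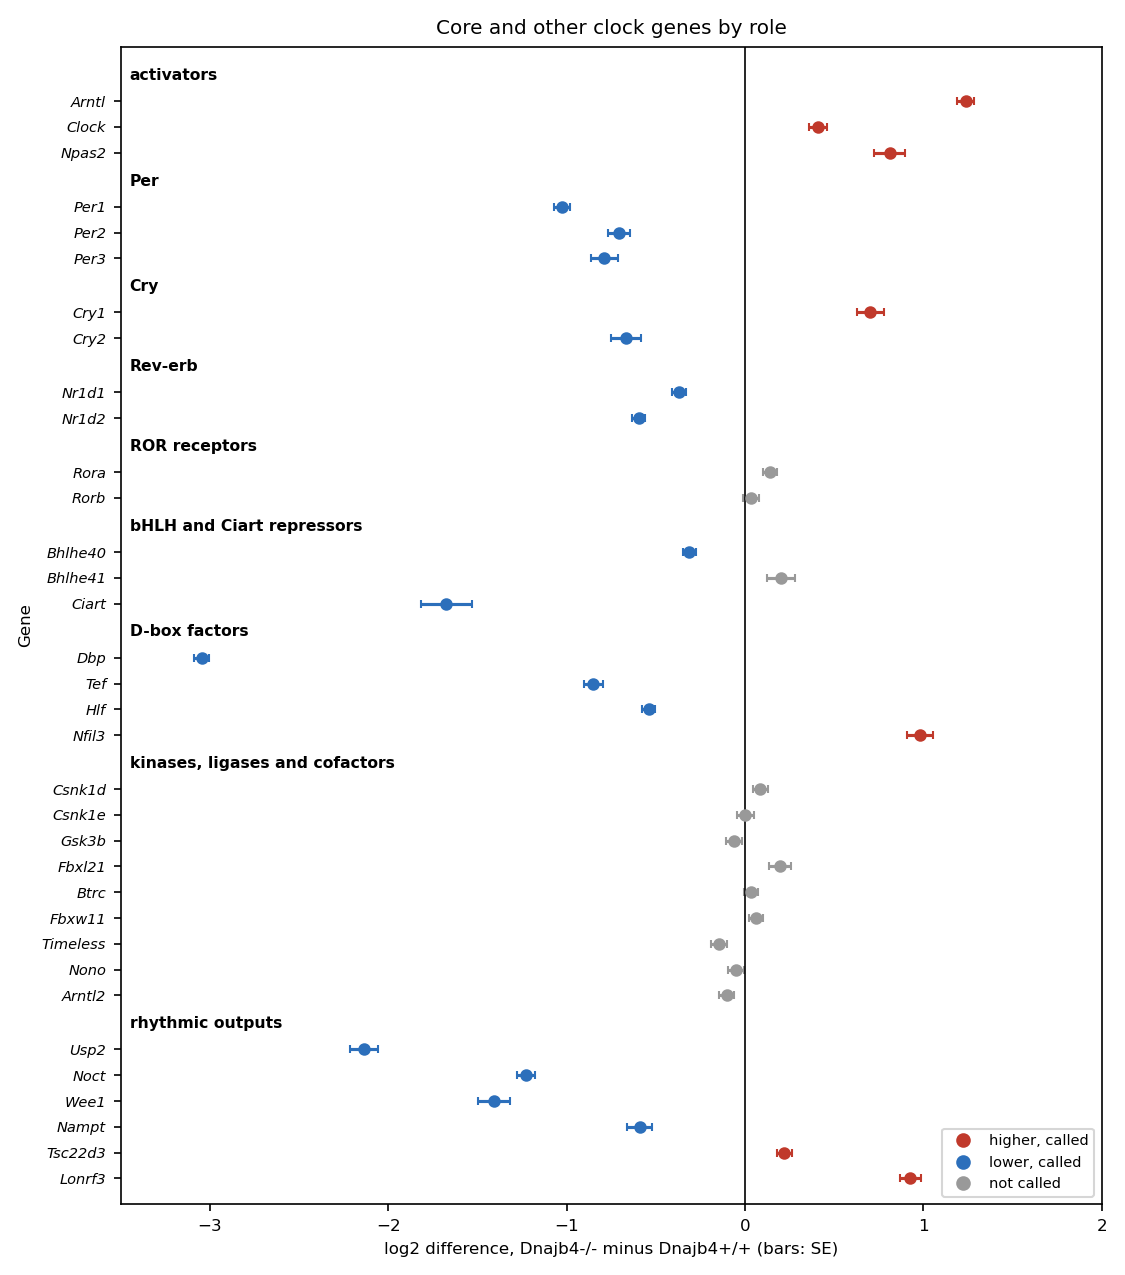
Log2 difference (x axis, Dnajb4-/- minus Dnajb4+/+, bars are standard errors) of the 10 core and 24 other clock genes (y axis), grouped by role, with called genes in red (higher) and blue (lower) and the rest in grey. The core activators, Cry1 and Nfil3 lie to the right and the Per and Rev-erb genes to the left, with Dbp farthest left at -3.05. The 9 genes listed as kinases, ligases and cofactors are in grey.

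With symbols that start with Gm or LOC or hold Rik left out, the genes outside the core and other clock genes whose 6 array values, centred on the Dnajb4+/+ mean, lay nearest to those of Arntl were Elovl3, BC023105 and Bcl6, at Euclidean distances of 0.12, 0.23 and 0.24 on the log2 scale among the 16393 genes searched. Elovl3, a fatty acid elongase, had a log2 difference of 1.25, beside 1.24 for Arntl. The Arntl profile used here is the average of its 2 probe sets, whose own differences were 2.34 and 0.14. Nearest to Per1 were Mfsd2a, a lipid transporter (distance 0.11), Fmo2, a flavin monooxygenase (0.12) and Lipg, an endothelial lipase (0.12), with log2 differences of -1.04, -0.99 and -1.03. With 2 genotypes of 3 arrays, this likeness is mainly one of the size of the genotype difference.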

How the data were processed

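Liver RNA of 3 Dnajb4-/- and 3 Dnajb4+/+ mice was measured on 1 array each. The deposited intensities, linear in scale, were made by the authors with GeneSpring, using GCRMA and a global median centring (lowest value 3.90, array medians 31.8 to 32.5). GCRMA models the background by probe GC content, so small differences of dim probe sets are uncertain. Raw scanner files and detection calls were not used here.

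Of 45101 probe sets, 64 controls, 932 with several symbols and 9160 with none were left out by GEO's platform annotation. The log2 values of the other 34945 were averaged per gene. All 18193 genes were compared without a filter in R 4.3.3 with limma 3.58.1 (lmFit, eBayes, two-sided). The core clock genes, the other lists and the alternatives were chosen with earlier results of these data known. Named are all core clock genes and, from each group of other clock genes, the 2 called genes that differed most. With none called, the gene that differed most is named. Tef, Hlf, Bhlhe41 and Arntl2 are named besides, to describe their groups. The 3 genes nearest in profile to the core gene with the largest rise, and to that with the largest fall, are named as well. Marker lists without values in the report were lymphocyte (1 of 6 lower, beside 9.57% of all genes) and erythroid (0 of 3 by limma, by the methods' t-test and at an unadjusted p under 0.05). Under the lower quartile of signal were 2 of these 6 lymphocyte markers, Cd3g and Ms4a1, and 2 of these 3 erythroid markers, Hba-a1 and Slc4a1. Across genes, Pearson's r was 0.9982 to 0.9985 within a genotype and 0.9935 to 0.9948 between genotypes. Simulated data of 18193 genes had 50 changed genes at each absolute log2 change of 0.25, 0.5, 1 and 2. Of these 32%, 80%, 98% and 100% were recovered, in that order, and 8 unchanged genes were called. Noise was independent between genes, and fewer genes changed than were called in the livers, so the rates need not hold there. Plots used python 3.11.15 and matplotlib 3.10.9.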

Additional observations from a re-analysis of the deposited data

How the results depend on the processing

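All 10 core clock genes kept their direction under every alternative that could measure them, and 164 of the 166 single values also kept their call. Arntl was not called without probe sets of an _a, _s or _x suffix (0.14), and Npas2 was not called with its brightest probe set alone (0.072). With the brightest probe set Arntl was at 2.34 and Per3 at -1.64, and with 16 added to each value Npas2 was at 0.48. The log2 differences of the other genes ranged from 0.36 to 0.45 (Clock), 0.60 to 0.75 (Cry1), -0.74 to -0.60 (Cry2), -0.39 to -0.31 (Nr1d1), -0.75 to -0.49 (Nr1d2), -1.06 to -0.96 (Per1) and -1.03 to -0.54 (Per2). Without dim genes Npas2 and Per3 were not tested, without suffixed probe sets Cry1 was not, and with brighter probe sets alone, an alternative chosen after seeing the data, Npas2 was not. The count of called core clock genes was 10 with each left-out replicate, and that of core clock probe sets 17 to 18. Of the other clock genes 11 to 12 were called with each left-out replicate, and 11 to 14 with the other settings.

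Over all genes the count of 2667 calls ranged from 1552 to 2009 with a replicate left out. It was 1552 and 1621 without Dnajb4+/+ replicate 1 or 3, and 1692 and 1721 without Dnajb4-/- replicate 1 or 2. Over all probe sets the count of 4733 ranged from 2397 to 3220, was 2767 without suffixed probe sets and 7332 with a trended, robust variance. With the replicate number as a block 1529 genes and 2166 probe sets were called, and all 10 core clock genes and 17 of their probe sets. The numbers do not pair the mice by the labels, and deviations of same-numbered arrays correlated at -0.021, -0.14 and 0.0091. The methods' t-test called 4916 genes at the threshold the methods state and 2038 after adjustment, with all 10 core clock genes in both. The causes of these changes were not tested.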
